A study of Homo sapiens with 2 samples.

Results

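The genes described here are 52 genes of G2 phase and mitosis, of 36601 genes measured. They were chosen by symbol from a marker list widely used in single-cell work for the G2/M part of the cell cycle. Their levels are given in 6 human breast cancer cell lines, together with the share of cells that expressed the set strongly and the genes that moved out of step with the rest. The study profiled the lines by droplet single-cell RNA sequencing of 3′ ends, in which each line was stained with its own lipid-anchored oligo before pooling, and it asked which surface markers separate subpopulations of cancer cells. One pool held BT-474, MDA-MB-231 and MDA-MB-453 cells, and the other held HCC38, Hs578T and MDA-MB-436 cells. The labels name no treatment for any line. BT-474 is a luminal line with amplified ERBB2 and oestrogen receptor, MDA-MB-453 is a luminal line with androgen receptor, and the other lines are triple-negative, that is without oestrogen receptor, progesterone receptor or ERBB2 amplification. MDA-MB-436 is also known for loss of RB1. Each line was 1 culture in 1 pool, so a line, its culture and, between pools, its pool cannot be told apart.

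A cell that has copied its DNA enters mitosis when CDK1, bound to B-type cyclins, is activated by CDC25 phosphatases, and leaves it when the cyclosome, an ubiquitin ligase switched on by CDC20, has its targets degraded. Between these events Aurora kinases, kinetochores and spindle motors attach and separate the chromosomes, condensin and topoisomerase II shape them, and the nuclear envelope is dismantled and rebuilt. Transcripts of most genes in this machinery are kept low in G1 by the DREAM repressor complex, which binds letters called the CHR (cell cycle genes homology region), and are switched on in G2 by the MuvB complex with MYBL2 and then FOXM1. Many of these promoters also hold CCAAT boxes, which bind the factor NF-Y. Tumour lines that divide quickly hold many cells with these transcripts, and the set is widely read as a mark of proliferation.

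Promoters of 7 members are shown because the letters of the CHR and the CCAAT box can be seen in them. Each stretch is the 150 bases that end 1 base before the RefSeq transcription start, read in the direction of the gene, from RefSeq on GRCh38.p14. Capitals mark the CHR letters, searched as TTTGAA or TTCGAA on both strands, and the CCAAT box, searched as CCAAT on both strands, where it can read ATTGG. The first 2 belong to members that followed the rest of the set most closely from cell to cell, CENPA at chr2:26785906-26786055 on the plus strand and HMMR at chr5:163460482-163460631 on the plus strand.
CENPA: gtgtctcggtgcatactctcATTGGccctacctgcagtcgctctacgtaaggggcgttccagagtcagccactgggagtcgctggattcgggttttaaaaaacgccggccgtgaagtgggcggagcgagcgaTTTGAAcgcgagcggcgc
HMMR: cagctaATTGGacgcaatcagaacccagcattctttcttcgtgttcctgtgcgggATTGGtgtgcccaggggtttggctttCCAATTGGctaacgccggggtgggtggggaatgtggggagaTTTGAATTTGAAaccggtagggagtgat
The next 3 were added after their values were seen: CCNB2 at chr15:59104996-59105145, CKS2 at chr9:89311045-89311194 and CKS1B at chr1:154974531-154974680, all on the plus strand. CCNB2 encodes cyclin B2, and CKS2 and CKS1B are a pair of close paralogs that differed from cell to cell.
CCNB2: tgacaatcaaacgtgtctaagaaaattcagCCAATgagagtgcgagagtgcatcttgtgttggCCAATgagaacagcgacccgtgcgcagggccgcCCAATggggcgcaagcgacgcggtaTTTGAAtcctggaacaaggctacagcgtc
CKS2: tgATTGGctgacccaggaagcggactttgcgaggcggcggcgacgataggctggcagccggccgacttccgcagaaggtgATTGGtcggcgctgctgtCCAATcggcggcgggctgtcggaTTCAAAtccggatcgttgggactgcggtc
CKS1B: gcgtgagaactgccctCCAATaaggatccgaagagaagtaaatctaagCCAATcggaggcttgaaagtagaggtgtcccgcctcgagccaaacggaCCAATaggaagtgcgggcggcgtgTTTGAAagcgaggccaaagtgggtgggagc
The last 2 belong to the members that followed the rest least, CBX5 at chr12:54280123-54280272 on the minus strand and CTCF at chr16:67562376-67562525 on the plus strand.
CBX5: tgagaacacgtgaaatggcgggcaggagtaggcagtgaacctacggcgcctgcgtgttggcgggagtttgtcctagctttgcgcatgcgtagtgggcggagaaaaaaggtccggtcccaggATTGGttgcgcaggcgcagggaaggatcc
CTCF: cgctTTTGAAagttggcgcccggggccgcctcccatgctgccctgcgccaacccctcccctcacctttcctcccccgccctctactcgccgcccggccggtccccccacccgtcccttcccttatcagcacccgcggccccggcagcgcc
In CENPA, HMMR, CCNB2, CKS2 and CKS1B the CHR letters stood close to the start and downstream of the CCAAT boxes. CKS2 read TTCAAA on the strand shown, which is TTTGAA on the other strand. CBX5 showed a CCAAT box and no CHR letters in its window, and CTCF showed TTTGAA far upstream of the start with no CCAAT box after it.

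RefSeq promoter windows from 250 bases before to 50 bases after the start were matched by symbol for 44 of the 52 members. AURKA, UBE2C, CDCA2, TTK, TPX2, HMGB2, BIRC5 and ANP32E had no entry. CHR letters were found in 32 of the 44 windows (72.7%), against 16.6% of all 27305 promoter windows of the table. CCAAT was found in 68.2% of the members' windows and 35.7% of all windows, and both together in 59.1% of the members' windows and 6.58% of all windows. CHR letters within the last 50 bases before the start were found in 27.3% of the members' windows and 2.45% of all windows. Among 46 windows of other mitotic genes the share with CHR letters was 69.6%, and among 31 windows of G1/S replication genes it was 9.68%, although 71.0% of the G1/S windows held CCAAT. The letters did not separate members that followed the set closely from those that followed it loosely. The 26 most in step had CHR letters in 71.4% of 21 windows, and the 26 least in step had them in 73.9% of 23 windows. Of the 8 most in step 2 of 6 windows held them, and of the 8 least in step 3 of 7. Windows of GAS2L3, CENPE and CDC25C, all among the 8 most in step, held neither motif, which says only that these letters were not in these windows.

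The deposited matrix held 17605 cell barcodes in 6 groups, 1 for each oligo, and 15236 barcodes (86.5%) had at least 10000 unique molecular identifiers (UMIs, counted RNA molecules) in genes and at most 20% of them in mitochondrial genes. Between 1953 and 3419 cells per group were kept, with totals of 69.95 to 96.1 M UMIs per group and a median of 20393 to 38404 UMIs per cell. The labels do not tie oligos to lines, so each group was called X-like after the line whose markers it led. BT-474-like cells led 11 of 11 markers of that line, among them ERBB2 and PGR, and the other groups led 5 to 8 of the 7 to 9 markers listed for theirs. MDA-MB-436-like cells led 5 of 7, including IL1B and IL13RA2, but also MMP1 of the MDA-MB-231 list. Hs578T-like cells led LY6K and NNMT of the MDA-MB-231 list. They also led ALCAM of the MDA-MB-453 list, KRT17 of the HCC38 list and SPARC of the MDA-MB-436 list. BT-474-like cells led DHRS2 of the MDA-MB-453 list. MDA-MB-436-like cells had RB1 at 4.92 CPM against 33.1 to 80.9 CPM in the other groups (CPM, the counts-per-million unit, from UMIs summed over the group). Median mitochondrial shares were 14.6% in BT-474-like cells and 5.85% to 9.85% in the other 5 groups, and 456 BT-474-like barcodes were left out for a share over 20%. Between the captures 22 barcode sequences were shared, and no sequence occurred in 2 groups of 1 capture. With no second culture of any line, no test between lines was possible. All intervals are at 95% and cover counting error only, since cells of 1 culture are not replicates. No cell type free of dividing cells was present to measure background RNA, and its part in low values was not tested.

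All 52 members were measured, at 10 CPM or more in at least 1 group. Summed over the set, BT-474-like cells had 4244 CPM, MDA-MB-231-like cells 9986, MDA-MB-453-like cells 7468, HCC38-like cells 9018, Hs578T-like cells 6974 and MDA-MB-436-like cells 7241. The set was lowest in BT-474-like cells and highest in MDA-MB-231-like cells. In such sums, fewer cells in G2/M and less of these RNAs per cell cannot be told apart, and the values per cell are given further on. Each member was then set against the mean of the other 5 groups as a log2 ratio of CPM plus 1. The median ratio of the members was -1.08 in BT-474-like, 0.41 in MDA-MB-231-like, -0.27 in MDA-MB-453-like, 0.32 in HCC38-like, -0.10 in Hs578T-like and -0.19 in MDA-MB-436-like cells. Over all 10892 genes measured the medians were -0.41 in BT-474-like, -0.16 in MDA-MB-231-like, -0.15 in MDA-MB-453-like, -0.02 in HCC38-like, -0.16 in Hs578T-like and -0.18 in MDA-MB-436-like cells. Counting intervals of single members were typically 0.03 to 0.05 wide on each side.

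In BT-474-like cells 29 of 52 members were at least 2-fold lower than the mean of the other lines, where 27.1% of all genes were, and none was 2-fold higher (7.35% of all genes). MDA-MB-231-like cells had 4 members 2-fold higher (6.56% of all genes) and 2 lower (17.2%). MDA-MB-453-like cells had 2 higher (10.4%) and 7 lower (23.1%). Outside BT-474-like cells, members past 2-fold were few. HCC38-like cells had 3 higher (10.4%) and none lower (13.4%). Hs578T-like cells had none higher (9.64%) and 1 lower (17.4%), and MDA-MB-436-like cells had 3 higher (9.47%) and 5 lower (20.2%). The share of members lower in BT-474-like cells was above the share of all genes, and in the other 5 groups the shares of members past 2-fold were near or below it. Of the 52 members, 38 had their lowest level in BT-474-like cells, and 1, AURKA, had its highest there. MDA-MB-231-like cells held the highest level of 17 members and HCC38-like cells of 11. Of all 10892 genes, 2851 had their lowest and 1283 their highest level in BT-474-like cells. The highest level lay in MDA-MB-231-like cells for 1438 genes and in HCC38-like cells for 2177. In HCC38-like cells the share of members was thus near that of all genes.

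Mitochondrial share moved with the set in some lines. Among BT-474-like cells the set had a median of 26 UMIs per 10000 up to 10% mitochondrial UMIs. By narrower bands it was 33 over 5% and up to 10%, 16 over 10% and up to 15%, and 14 over 15% and up to 20%. In MDA-MB-231-like cells the medians were 102 up to 5%, 75 over 5% and up to 10%, and 50 over 10% and up to 15%. In MDA-MB-453-like cells they were 63 up to 5%, 54 over 5% and up to 10%, 40 over 10% and up to 15%, and 31 over 15%. Hs578T-like cells had 60 up to 5%, 56 over 5% and up to 10%, and 35.5 over 10% and up to 15%. HCC38-like and MDA-MB-436-like cells varied less. MDA-MB-436-like cells had medians of 59 up to 5%, 60 over 5% and up to 10%, 55 over 10% and up to 15%, and 50 over 15%, and HCC38-like cells were similar, with medians of 59 up to 5%, 62 over 5% and up to 10%, and 54.5 over 10% and up to 15%. With cells of at most 10% mitochondrial UMIs alone, the median log2 ratio in BT-474-like cells was -0.39 and 10 members were 2-fold lower, from 207 cells or 9.20% of the group. Under that filter 25.8% of all genes were 2-fold lower, so the share of members was below that of all genes. The part of the mitochondrial share in the result was not tested. With trimmed-mean (TMM) scaling the median over all genes moved by 0.17 in BT-474-like and by -0.25 in HCC38-like cells, and the set median became -0.90 in BT-474-like and 0.07 in HCC38-like cells. Set against the other 2 lines of their own pool alone, the set medians were -1.12 in BT-474-like cells and 0.87 in MDA-MB-231-like cells. In MDA-MB-231-like cells 22 members were then 2-fold higher, where 18% of all genes were, and in MDA-MB-436-like cells 10 were 2-fold lower, where 19.6% of all genes were.

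Per cell, every cell was thinned to 10000 UMIs and the UMIs of the 52 genes were added. The count ranged between 1 and 371. Medians were 15 in BT-474-like, 79.5 in MDA-MB-231-like, 46 in MDA-MB-453-like, 60.5 in HCC38-like, 56 in Hs578T-like and 59 in MDA-MB-436-like cells. The spread differed between lines as well as the middle. The 5th and 95th percentiles were 6 and 135.5 in BT-474-like cells and 10 and 218.7 in HCC38-like cells, but 22 and 151.3 in MDA-MB-436-like cells, whose low end lay highest of the 6 groups. The middle cell had a UMI of 10 different members in the BT-474-like group, and of 31 in the MDA-MB-231-like, 23 in the MDA-MB-453-like, 28 in the HCC38-like, 28 in the Hs578T-like and 27 in the MDA-MB-436-like group.

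**Figure D1:**
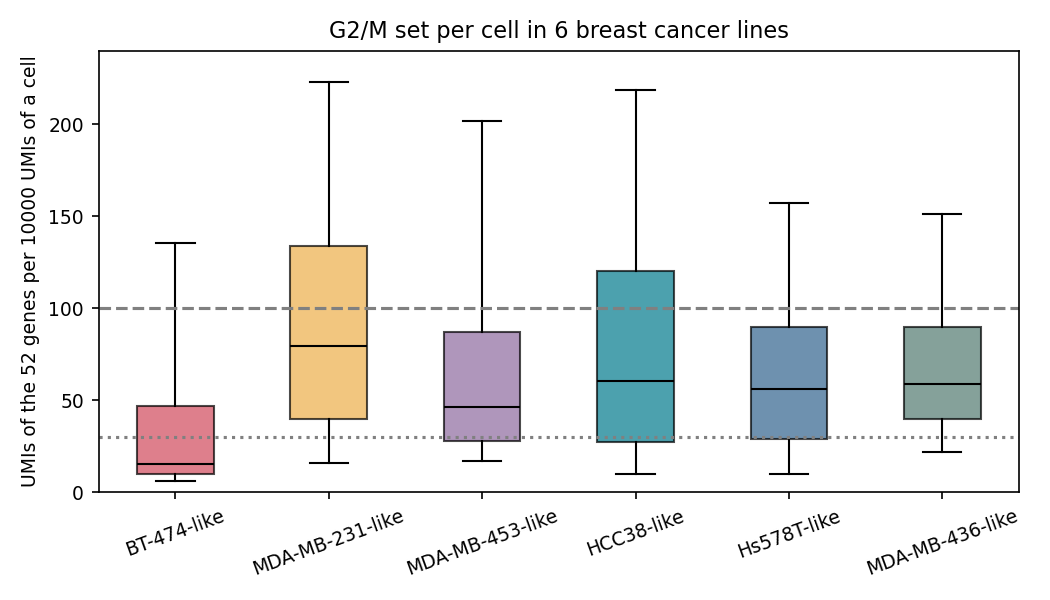
UMIs of the 52 genes per 10000 UMIs of a cell (vertical axis) in the 6 line classes; boxes span the 25th to 75th percentile, lines mark the median, whiskers the 5th and 95th percentiles of cells, and the dotted and dashed lines mark 30 and 100 UMIs. The BT-474-like box lies mostly below the boxes of the other lines, while its upper whisker reaches 135.5.

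A cell was counted as G2/M-high with at least 30 UMIs of the set in 10000. The share of such cells was 33.1% in BT-474-like (95% Clopper-Pearson interval 31.2 to 35.1), 83.3% in MDA-MB-231-like (81.9 to 84.6), 72.7% in MDA-MB-453-like (71.2 to 74.2), 72.5% in HCC38-like (70.7 to 74.3), 74.8% in Hs578T-like (72.8 to 76.7) and 89.0% in MDA-MB-436-like cells (87.6 to 90.3). The cut divides a range and not a cell type, and 127 to 621 cells per group lay within 5 UMIs of it. In MDA-MB-231-like and MDA-MB-436-like cells the 25th percentile was 40 UMIs, so most of their lower-ranked cells passed the cut too. The shares are thus not shares of cells in G2 or mitosis. The order of the lines depended on the cut. At 100 UMIs the shares were 10.1% in BT-474-like, 40.4% in MDA-MB-231-like, 21.1% in MDA-MB-453-like, 31.4% in HCC38-like, 20.6% in Hs578T-like and 20.5% in MDA-MB-436-like cells. MDA-MB-436-like cells thus came first at 30 UMIs and close to Hs578T-like and MDA-MB-453-like cells at 100 UMIs, with overlapping intervals. BT-474-like cells had the lowest share at each cut tried.

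Among the genes of CDK1 activity and the cyclosome, the lines were ordered differently for neighbouring steps. CKS2, a small subunit that binds CDK1, was at 172 CPM in BT-474-like, 431 in MDA-MB-231-like, 99.99 in MDA-MB-453-like, 271 in HCC38-like, 238 in Hs578T-like and 551 in MDA-MB-436-like cells. The counting intervals of these 6 values did not overlap, and the log2 ratio to the other 5 lines was 1.18 in MDA-MB-436-like and -1.72 in MDA-MB-453-like cells. Its paralog CKS1B, which also serves the ubiquitin ligase SCF with SKP2, was at 162 CPM in BT-474-like, 427 in MDA-MB-231-like, 236.5 in MDA-MB-453-like, 352.5 in HCC38-like, 185 in Hs578T-like and 343 in MDA-MB-436-like cells. MDA-MB-453-like cells, lowest for CKS2, were thus in the middle for CKS1B. CDK1, the mitotic kinase itself, was at 239 CPM in HCC38-like cells and between 76.1 and 151.5 CPM in the other lines, a log2 ratio of 1.03. CDCA3, a trigger of mitotic entry that works with a ubiquitin ligase, was at 13.1 CPM in MDA-MB-453-like and 17.0 CPM in BT-474-like cells, against 54.8 to 74.2 CPM in the other 4. UBE2C, the ubiquitin-conjugating enzyme of the cyclosome, was at 399 CPM in HCC38-like and 384 in MDA-MB-231-like cells and at 118 in BT-474-like cells. CDC20, the cyclosome's activator, was at 55.3 CPM in BT-474-like and 62.9 CPM in MDA-MB-453-like cells and at 152 to 234 CPM elsewhere.

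Aurora kinases parted ways in BT-474-like cells. AURKA, the kinase of spindle poles, was at 263 CPM in BT-474-like, 262 in MDA-MB-231-like, 129.8 in MDA-MB-453-like, 192 in HCC38-like, 158 in Hs578T-like and 165 in MDA-MB-436-like cells. The intervals of the first 2 overlapped, and the log2 ratio in BT-474-like cells was 0.53, where the set stood at -1.08. AURKB, the kinase of the chromosomal passenger complex, was at 16.9 CPM in BT-474-like, 67.8 in MDA-MB-231-like, 19.9 in MDA-MB-453-like, 45.4 in HCC38-like, 59.6 in Hs578T-like and 77.1 in MDA-MB-436-like cells. Its partners in that complex were also low in BT-474-like cells, with CDCA8 (borealin) at 26.3 CPM and BIRC5 (survivin) at 55.2 CPM. INCENP, the scaffold of the complex and no member of the set, was closer to the other lines, at 25.3 CPM in BT-474-like cells and a log2 ratio of -0.49. In the other 5 lines CDCA8 was at 38.0 to 112 CPM and BIRC5 at 84.6 to 251 CPM. BIRC5 was highest in Hs578T-like cells, at a log2 ratio of 0.98, as was CDCA2, which brings a phosphatase to chromosomes at the end of mitosis, at 88.7 CPM and a log2 ratio of 1.00. TTK, the checkpoint kinase MPS1, was at 96.7 CPM in MDA-MB-436-like cells against a mean of 45.9 in the other lines (log2 ratio 1.06), and at 38.3 CPM in HCC38-like cells against a mean of 57.6 (log2 ratio -0.58).

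Of the 6 kinetochore and centromere genes, 3 were at least 2-fold lower in BT-474-like cells, where 27.1% of all genes were. CENPF, a large protein of the outer kinetochore, was at 303 CPM in BT-474-like, 769 in MDA-MB-231-like, 609 in MDA-MB-453-like, 399 in HCC38-like, 402 in Hs578T-like and 487 in MDA-MB-436-like cells. NDC80, which binds microtubules together with NUF2, was at 21.1 CPM in MDA-MB-453-like cells against a mean of 60.1 in the other lines (log2 ratio -1.47). NUF2 was at 90.7 CPM in the same cells and between 42.9 and 100.9 CPM in the others. The partners in 1 complex thus differed in MDA-MB-453-like cells. HJURP, the chaperone that loads the centromere histone CENPA, was at 22.9 CPM in BT-474-like and 104.8 CPM in HCC38-like cells.

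Of the 16 genes of spindle motors and microtubules, 11 were at least 2-fold lower in BT-474-like cells, where 27.1% of all genes were. NUSAP1, which bundles spindle microtubules, was at 43.0 CPM there, against 217 to 377.5 CPM in the other lines (log2 ratio -2.67). PSRC1, a microtubule-binding protein, was at 4.06 CPM in BT-474-like, 19.9 in MDA-MB-231-like, 10.2 in MDA-MB-453-like, 45.0 in HCC38-like, 20.9 in Hs578T-like and 12.4 in MDA-MB-436-like cells. It was thus both the member furthest above the set in HCC38-like cells (log2 ratio 1.67) and among the 3 furthest below it in BT-474-like cells (-2.16). HMMR, a spindle and hyaluronan-binding protein, was at 51.5 CPM in BT-474-like, 39.7 in MDA-MB-231-like, 56.8 in MDA-MB-453-like, 146.5 in HCC38-like, 76.5 in Hs578T-like and 75.4 in MDA-MB-436-like cells. It had a log2 ratio of 1.27 in HCC38-like cells and of -1.02 in MDA-MB-231-like cells, the group where the set was highest. MDA-MB-231-like cells led DLGAP5, a spindle assembly factor, at 279.7 CPM against a mean of 113 (log2 ratio 1.30), and KIF20B, a kinesin of the spindle midzone, at 224 CPM against a mean of 92.4 (log2 ratio 1.27). TPX2, the activator of AURKA on the spindle, was at 229.5 CPM in BT-474-like cells and at 280.5 to 645 CPM in the others. TUBB4B, a beta tubulin whose 3′ reads can be shared with other beta tubulins, was at 383 CPM in BT-474-like, 484 in Hs578T-like, 646.5 in HCC38-like and 760.2 to 774 CPM in the other lines.

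The 2 genes of cytokinesis were ANLN, which scaffolds the contractile ring, and ECT2, which activates RhoA at the midzone. ANLN was at 55.5 CPM in BT-474-like, 272 in MDA-MB-231-like, 73.6 in MDA-MB-453-like, 109 in HCC38-like, 251 in Hs578T-like and 138 in MDA-MB-436-like cells. ECT2 was at 137 CPM in BT-474-like, 165 in MDA-MB-231-like, 229 in MDA-MB-453-like, 157 in HCC38-like, 118 in Hs578T-like and 72.3 in MDA-MB-436-like cells. MDA-MB-453-like cells were thus lowest but 1 for ANLN and highest for ECT2.

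Genes of chromosome structure included members far from the set in several lines. TOP2A, topoisomerase II alpha, was at 213 CPM in BT-474-like, 703 in MDA-MB-231-like, 198 in MDA-MB-453-like, 625 in HCC38-like, 347 in Hs578T-like and 184 in MDA-MB-436-like cells. Its log2 ratio was 1.16 in MDA-MB-231-like cells and -1.17 in MDA-MB-436-like cells. HMGB2, a DNA-bending protein, was at 94.8 CPM in MDA-MB-436-like cells against a mean of 280.4 in the other lines (log2 ratio -1.55), and at 408 CPM in MDA-MB-453-like cells against a mean of 218 (0.90). SMC4, a condensin subunit, was also low in MDA-MB-436-like cells, at 110.3 CPM against a mean of 260.3 (log2 ratio -1.23), whereas the condensin subunit NCAPD2 was at 96.6 CPM there and at 36.8 to 86.6 CPM in the others. ANP32E, a chaperone that removes the histone H2A.Z, showed the widest range of all members, 13.1-fold. It was at 29.1 CPM in BT-474-like, 238.5 in MDA-MB-231-like, 152 in MDA-MB-453-like, 173 in HCC38-like, 167 in Hs578T-like and 381.5 in MDA-MB-436-like cells. CBX5, the heterochromatin protein HP1 alpha, was at 216.5 CPM in BT-474-like, 83.6 in MDA-MB-231-like, 276 in MDA-MB-453-like, 152 in HCC38-like, 119 in Hs578T-like and 108 in MDA-MB-436-like cells. CTCF, which anchors chromatin loops, was at 84.5 CPM in BT-474-like, 62.1 in MDA-MB-231-like, 149 in MDA-MB-453-like, 83.9 in HCC38-like, 62.3 in Hs578T-like and 60.6 in MDA-MB-436-like cells. Both were highest in MDA-MB-453-like cells and lowest or nearly so in MDA-MB-231-like cells, where the set as a whole was highest. MKI67, the proliferation antigen Ki-67, was at 61.3 CPM in BT-474-like cells and at 194 to 410.2 CPM in the other lines.

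The last 4 members were the nuclear envelope genes TMPO and LBR, the nuclear transport gene RANGAP1, and G2E3. None of the 4 was 2-fold higher in any line, but only 6.56% to 10.4% of all genes were 2-fold higher in a line. TMPO, which encodes the lamina-associated polypeptide LAP2, was at 342 CPM in MDA-MB-453-like and 314.5 in MDA-MB-231-like cells and at 129.0 to 207 CPM in the other lines. LBR, the lamin B receptor, was at 39.9 CPM in BT-474-like and 47.4 in Hs578T-like cells, against 130.1 to 159 CPM in the other 4. RANGAP1, the GTPase activator of RAN, was at 40.4 CPM in HCC38-like cells against a mean of 79.0 (log2 ratio -0.95). G2E3, a ubiquitin ligase named for its G2/M expression, varied least of all members, between 46.5 and 72.5 CPM.

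**Figure D2:**
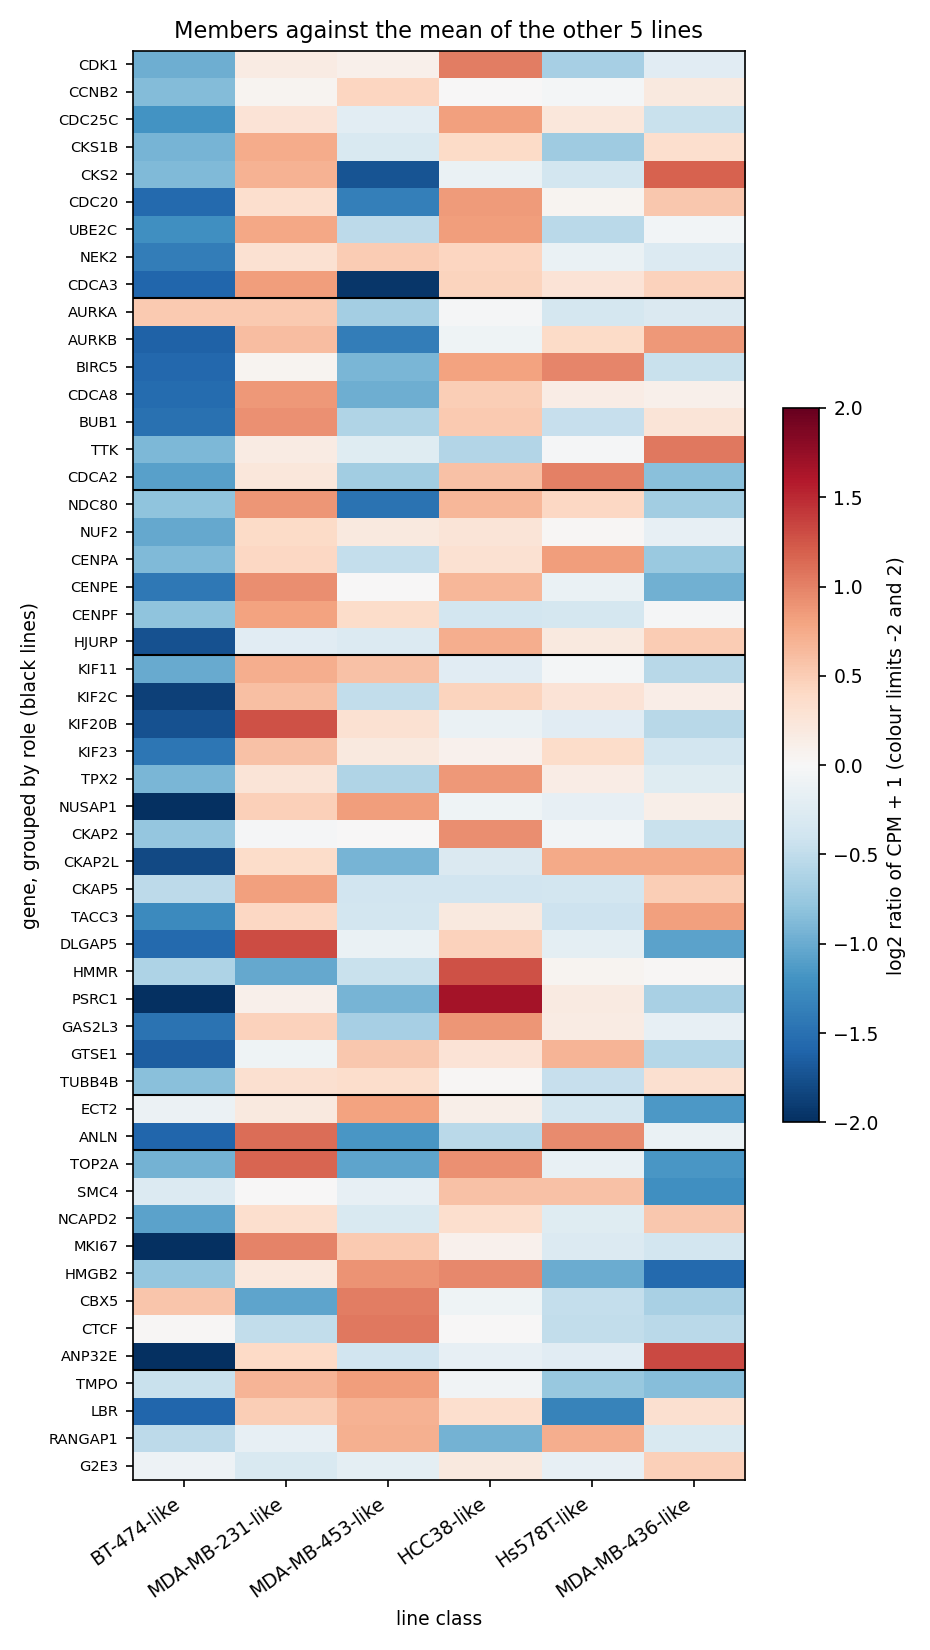
Log2 ratio of CPM + 1 of each gene (vertical, grouped by role) in each line class (horizontal) to the mean of the other 5, with blue for lower, red for higher and colours limited at -2 and 2. The BT-474-like column is blue for most genes except AURKA and CBX5, and ANP32E is at its colour limit there.

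Over all lines, 28 of the 52 members stayed within 2-fold of the median of the set in all 6 groups and 24 left it in at least 1. The count of members that left it was 7 in BT-474-like, 2 in MDA-MB-231-like, 11 in MDA-MB-453-like, 2 in HCC38-like, 4 in Hs578T-like and 7 in MDA-MB-436-like cells. The share of all genes this far from the set median was not worked out, so these counts describe the members only.

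Whether a gene moved with the set was also read from cell to cell within each line. For each gene, cells were ranked by the UMIs of the other 51 members, and its mean level in the top 10% of cells was divided by that in the bottom 50%. The top cells numbered up to 342 per line and the bottom cells 976 to 1710. The ratio describes a set that was put together as a module, and it supports nothing beyond the description. In all 6 lines 46 members were at least 2-fold higher in the top cells, in some lines 5 members were, and 1, CTCF, was in none. Among genes outside the set, ranked by all 52 members, 4.93% were 2-fold higher in BT-474-like, 2.67% in MDA-MB-231-like, 2.65% in MDA-MB-453-like, 3.42% in HCC38-like, 2.55% in Hs578T-like and 1.77% in MDA-MB-436-like cells. The median ratio of the members was 40.6 in BT-474-like, 6.61 in MDA-MB-231-like, 10.3 in MDA-MB-453-like, 9.24 in HCC38-like, 5.84 in Hs578T-like and 4.48 in MDA-MB-436-like cells. Bottom cells held least of the set in the BT-474-like group, with a median of 10 UMIs of the set, against 27 to 40 in the other lines. Top cells also held more UMIs in all, with a lower mitochondrial share. Their median UMI count before thinning was 1.27 to 1.54 times that of the bottom cells, and their median mitochondrial share was 5.36% to 12.9%, against 5.90% to 14.9% in the bottom cells. The part of either in the ratios was not tested.

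AURKA followed the rest most closely, with a median ratio of 16.7 over the 6 lines. It was at 11 UMIs per 10000 in the top and 0.495 in the bottom BT-474-like cells, 8.93 and 0.494 in MDA-MB-231-like, 5.38 and 0.349 in MDA-MB-453-like, 5.996 and 0.299 in HCC38-like, 5.07 and 0.329 in Hs578T-like, and 5.00 and 0.476 in MDA-MB-436-like cells. The ratios ran between 10.52 and 22.3, the narrowest range of the 8 members most in step. The AURKA level of bottom BT-474-like cells was thus no lower than that of the other lines. UBE2C, by comparison, was at 5.37 UMIs in the top and 0.0613 in the bottom BT-474-like cells, and at 9.41 and 0.927 in MDA-MB-231-like cells. CENPA, the centromere histone, had a median ratio of 15.1 and the CHR letters shown above. GAS2L3, a cytoskeletal linker of the midbody, had a median ratio of 14.4, CENPE, the kinetochore motor, 14.2, NEK2, a centrosome kinase, 13.9, CDC25C, the phosphatase that activates CDK1, 13.8, UBE2C 13.6 and HMMR 13.4. For all 8 the ratio was at least 4.78 in each line.

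**Figure D3:**
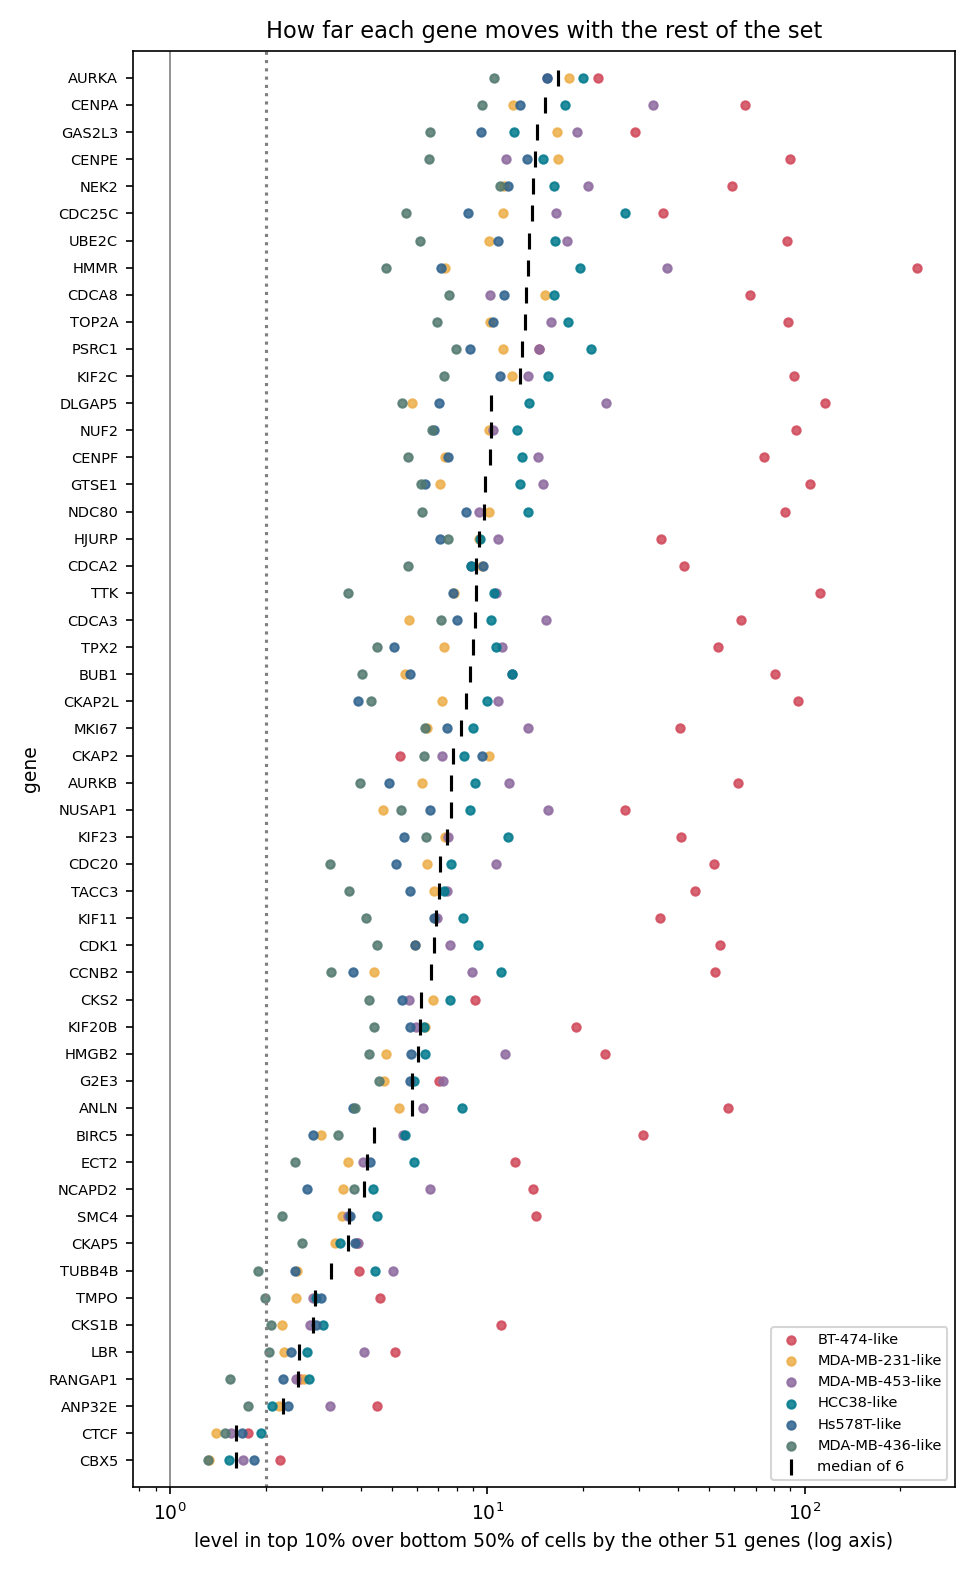
Level of each gene in the top 10% over the bottom 50% of cells ranked by the other 51 genes (horizontal, log axis), with a point per line class, a bar at the median of 6 and a dotted line at 2-fold. Genes run from AURKA at the top, median 16.7, to CTCF and CBX5 at the bottom, both at 1.62, and BT-474-like points lie furthest right for most genes.

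CBX5 and CTCF moved least. CBX5 was at 3.27 UMIs per 10000 in the top and 1.47 in the bottom BT-474-like cells, 0.993 and 0.751 in MDA-MB-231-like, 3.59 and 2.11 in MDA-MB-453-like, 1.86 and 1.21 in HCC38-like, 1.76 and 0.956 in Hs578T-like, and 1.18 and 0.895 in MDA-MB-436-like cells. CTCF was at 1.24 and 0.706 in BT-474-like, 0.715 and 0.512 in MDA-MB-231-like, 1.96 and 1.26 in MDA-MB-453-like, 1.31 and 0.678 in HCC38-like, 0.795 and 0.473 in Hs578T-like, and 0.772 and 0.518 in MDA-MB-436-like cells. The median ratio of both was 1.62, and every counting interval of their ratios lay above 1. Of the members next in order, ANP32E had a median ratio of 2.27, RANGAP1 2.53, LBR 2.56, CKS1B 2.82, TMPO 2.86 and TUBB4B 3.22. TUBB4B, TMPO, RANGAP1 and ANP32E fell short of 2-fold in MDA-MB-436-like cells alone, with ratios of 1.89 for TUBB4B, 1.99 for TMPO, 1.55 for RANGAP1 and 1.76 for ANP32E.

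The paralogs CKS1B and CKS2 were both 2-fold higher in the top cells of every line, but CKS2 had a median ratio of 6.197 and CKS1B one of 2.82. In MDA-MB-231-like cells CKS2 was at 10.4 UMIs in the top and 1.54 in the bottom cells, and CKS1B at 6.70 and 2.98. BT-474-like cells differed, with ratios of 9.17 (interval 8.36 to 10.1) for CKS2 and 11.03 (9.86 to 12.4) for CKS1B. Both promoters showed CHR letters and CCAAT boxes. AURKB had a median ratio of 7.70, below that of AURKA.

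**Figure D4:**
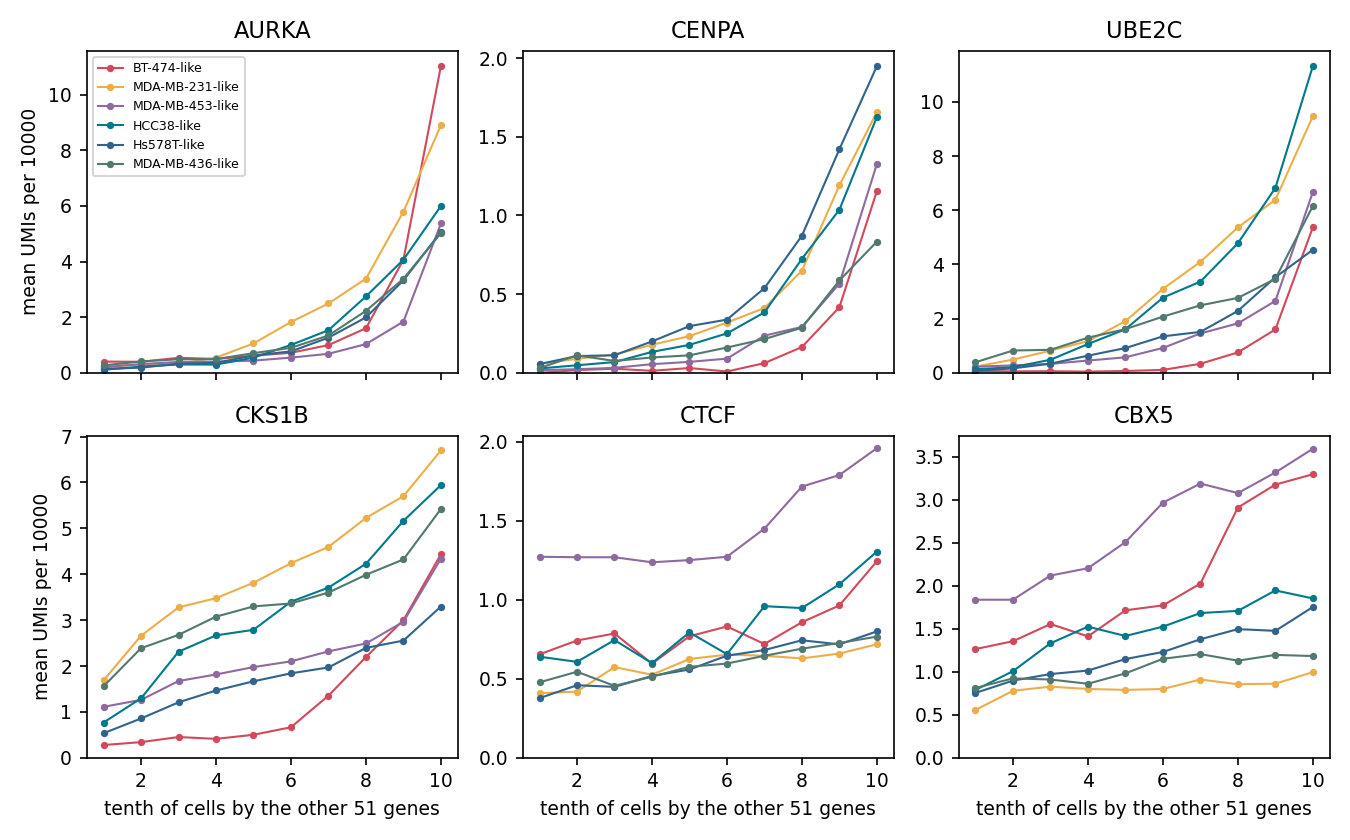
Mean UMIs per 10000 (vertical) of 6 genes in 10 equal bins of the cells of each line class, ordered from low to high by the other 51 genes (horizontal). AURKA, CENPA and UBE2C climb mainly in the upper bins, with UBE2C already rising in the middle bins in MDA-MB-231-like and HCC38-like cells. CKS1B climbs across all bins in most lines, but mainly in the last bins in BT-474-like cells. CTCF and CBX5 start well above 0 and climb little.

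Mitotic genes outside the set were read in the same cells, which they had no part in ranking. Of 55 such genes, 50 of 50 measured were at least 2-fold higher in the top than in the bottom BT-474-like cells, 42 of 54 in MDA-MB-231-like, 46 of 52 in MDA-MB-453-like, 48 of 53 in HCC38-like, 46 of 53 in Hs578T-like and 35 of 53 in MDA-MB-436-like cells. Of all genes outside the set, 4.93% were 2-fold higher in BT-474-like, 2.67% in MDA-MB-231-like and 2.65% in MDA-MB-453-like cells. This share was 3.42% in HCC38-like, 2.55% in Hs578T-like and 1.77% in MDA-MB-436-like cells. None of the listed mitotic genes was 2-fold lower in any line. Of all genes outside the set, 2.59% were 2-fold lower in BT-474-like, 2.02% in MDA-MB-231-like and 0.757% in MDA-MB-453-like cells. The share 2-fold lower was 1.95% in HCC38-like, 1.3% in Hs578T-like and 1.26% in MDA-MB-436-like cells. Median ratios of the list were 28.8 in BT-474-like, 4.23 in MDA-MB-231-like, 6.004 in MDA-MB-453-like, 6.23 in HCC38-like, 4.44 in Hs578T-like and 3.20 in MDA-MB-436-like cells, and those of all genes measured were 0.983 to 1.04. PLK1, the polo kinase of mitotic entry, had the largest median ratio over the 6 lines, 21.2. KIF14, a kinesin of cytokinesis, followed at 20.3, FAM83D, a spindle protein, at 15.3 over 5 lines, ASPM, a spindle pole protein, at 14.4, and CCNB1, cyclin B1, at 12.6. CDC25A was the only measured gene of the list with a median ratio under 1.5, at 0.646 over the 4 lines that measured it. It encodes a phosphatase that also acts at the entry to S phase. PKMYT1 was under 1.5-fold in 3 lines, WEE1 in 2, and CENPW, CENPK, CENPN, SMC2, STMN1 and JPT1 in 1 each.

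The regulators of these genes moved less than the genes themselves. Of 18 listed, 10 to 17 were measured per line, and 2 to 4 were 2-fold higher in the top cells (1.77% to 4.93% of genes outside the set). In MDA-MB-231-like and MDA-MB-453-like cells 1 was 2-fold lower, in MDA-MB-436-like cells 2, and in the other lines 0. The shares of genes outside the set 2-fold lower were 0.757% to 2.59%. FOXM1, the activator of G2 genes, had a median ratio of 3.06 (1.84 to 22.0 over the lines), and FZR1, the cyclosome's activator in G1, one of 2.65 over 5 lines. FZR1 was near the limit of 10 CPM in those 5 lines, at 11.8 to 18.5 CPM. MYBL2, the MuvB partner, ranged between 0.920 and 8.49 around a median of 1.75. E2F1, the activator of S-phase genes, was lower in the top cells of all 5 lines that measured it, with a median ratio of 0.358. RB1, RBL1, RBBP4, E2F4, TFDP1, LIN37 and CDKN1A had median ratios between 0.928 and 1.16. Across lines FOXM1 was lowest in BT-474-like cells, at 34.2 CPM, and highest in MDA-MB-436-like cells, at 139.9 CPM.

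Cells were last ranked by 42 genes of G1/S and DNA replication, which share no gene with the set. In BT-474-like cells the members were higher in the top cells of this ranking too, with a median ratio of 5.69, and 49 of 52 were at least 1.5-fold higher and none 1.5-fold lower, where 11.1% of genes outside both lists were higher and 6% lower. Medians in the other lines were 0.764 in MDA-MB-231-like, 1.06 in MDA-MB-453-like, 0.752 in HCC38-like, 1.12 in Hs578T-like and 0.769 in MDA-MB-436-like cells. In MDA-MB-231-like cells 1 member was 1.5-fold higher (7.12% of other genes) and 19 were lower (2.77%). HCC38-like cells had 1 higher (7.5%) and 20 lower (3.86%), and MDA-MB-436-like cells none higher (7.93%) and 20 lower (1.37%). MDA-MB-453-like cells had 16 higher (8.25%) and 11 lower (3%), and Hs578T-like cells 9 higher (7.06%) and 8 lower (3.35%). Member counts thus leaned low in 3 lines, high in BT-474-like cells and both ways in 2. CDC20, which acts at anaphase, had a median ratio over the 6 lines of 0.393, CENPA 0.417, CCNB2 0.451, DLGAP5 0.459, NEK2 0.473, AURKA 0.476 and CENPE 0.499. TMPO was at 1.75, CDK1 at 1.62, AURKB at 1.61, HMGB2 at 1.57, KIF11, the motor that separates spindle poles, at 1.53 and HJURP at 1.53. These 13 were picked after their values were seen. These are medians over lines, and in BT-474-like cells all 13 were above 1. CDK1 was above 1 in every line, at 1.24 to 17.4, while its cyclin CCNB2 was above 1 in BT-474-like cells alone, at 3.97.

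**Figure D5:**
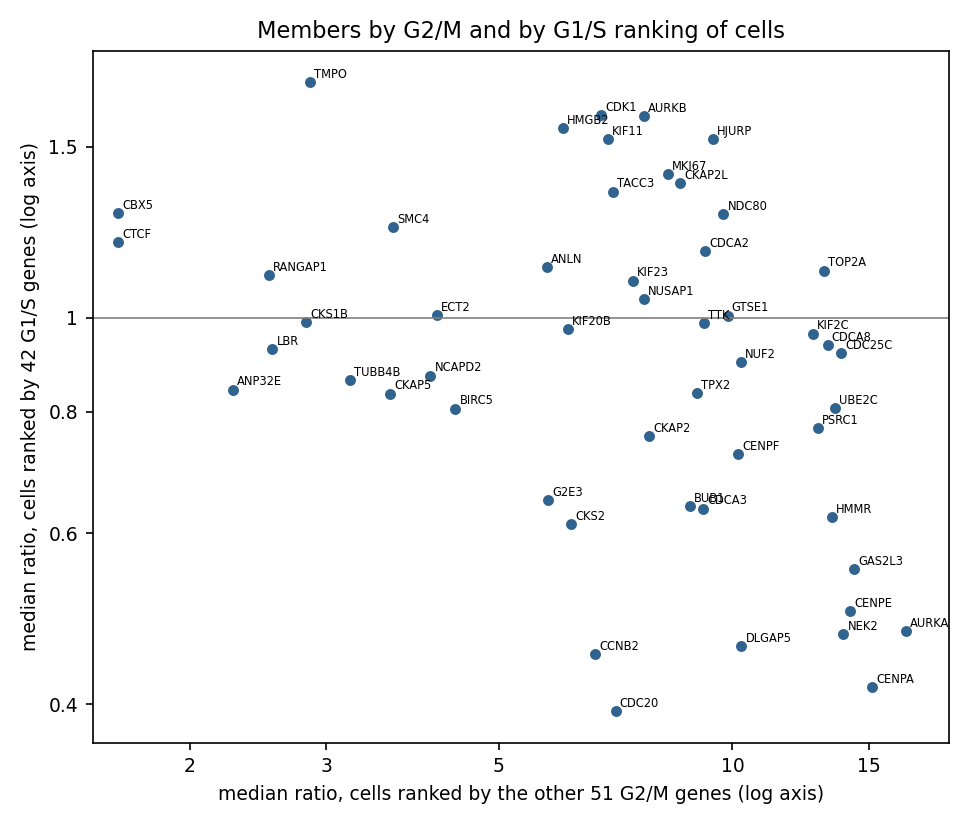
Median ratio over the 6 line classes of each gene between the top 10% and the bottom 50% of cells, ranked by the other 51 genes of the set (horizontal, log axis) and by 42 G1/S genes (vertical, log axis). AURKA and CENPA lie at the lower right, TMPO at the upper left, CDK1 and AURKB at the upper middle, and CTCF and CBX5 at the far left.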

How the data were processed

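The authors deposited 1 matrix of raw UMI counts for 36601 genes and 12 oligos in 17605 barcodes, with Cell Ranger 6.1.2 named in its header. The submitters' processing notes name the GRCh38 (hg38) build. How reads were aligned, cells called and oligos assigned is not given in the sources used here. Barcode suffixes gave the 6 groups, and in every kept barcode of a group the same oligo had the highest count. The members and all gene lists were chosen with earlier results of these data known. Counts were summed per group as CPM, cells were thinned with a fixed seed, and log2 ratios used a pseudocount of 1 CPM. Genes were named by rule: in each role the member with most UMIs, in each line the 3 members furthest above and below the set median, and the 8 most and 8 least in step. Genes named beyond these were chosen after their values were seen. Promoters of 4 of the 8 most in step with CHR letters were sought and 2 were found, so 3 others were added. Doublets were kept, and Scrublet in scanpy 1.11.5, run per capture, marked 218 kept barcodes (1.43%). Intervals are exact Poisson for CPM, Clopper-Pearson for shares and conditional binomial for ratios. Python 3.11.15, numpy 2.4.6, scipy 1.17.1, pandas 2.3.3, matplotlib 3.10.9, R 4.3.3 and edgeR 4.0.16 (TMM factors only) were used, and the scripts were tested on simulated data.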

Additional observations from a re-analysis of the deposited data

Results flagged for a closer look

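Genes of G1/S and DNA replication were compared between the top 10% and the bottom 50% of cells ranked by the G2/M set, and the direction differed between lines. The median ratio of the 42 listed genes was 3.44 in BT-474-like cells and below 1 in the other 5 lines, at 0.556 in MDA-MB-231-like, 0.809 in MDA-MB-453-like, 0.815 in HCC38-like, 0.885 in Hs578T-like and 0.579 in MDA-MB-436-like cells. At least 2-fold higher in the top cells were 30 of 40 measured genes in BT-474-like cells and 0 to 4 in the other lines. Among all genes outside the set 4.93% were in BT-474-like cells and 1.77% to 3.42% in the other lines. At least 2-fold lower were 1 of 40 in BT-474-like, 17 of 42 in MDA-MB-231-like, 7 of 42 in MDA-MB-453-like, 6 of 41 in HCC38-like, 6 of 40 in Hs578T-like and 12 of 41 in MDA-MB-436-like cells. The shares of all genes outside the set were 2.59% in BT-474-like, 2.02% in MDA-MB-231-like and 0.757% in MDA-MB-453-like cells. They were 1.95% in HCC38-like, 1.3% in Hs578T-like and 1.26% in MDA-MB-436-like cells. The median UMIs of the list per 10000 were 19 in the top and 6 in the bottom BT-474-like cells, and 24 in the top and 32 in the bottom MDA-MB-231-like cells. Each line was 1 culture, so the difference between lines was not tested.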

How the results depend on the processing

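Of 96 repeats of the results per line or list under alternative settings, 55 stayed within the counting error or within 1.5 times the count. The other 41 moved. Of the median log2 ratios 0 changed sign. Shares of cells, counts of genes and motif percentages cannot be negative, so their repeats could not change sign. Repeats without the filter on low levels are among the 55, but could not differ because every member already passed that filter. The repeats of the 16 genes most and least in step kept 25 of 32 within their intervals, and the 7 others were smaller with the top 20% of cells. With at most 10% mitochondrial UMIs the set medians were -0.39 in BT-474-like, 0.30 in MDA-MB-231-like, -0.21 in MDA-MB-453-like, 0.19 in HCC38-like, -0.25 in Hs578T-like and -0.33 in MDA-MB-436-like cells, and the shares at 30 UMIs 49.3% in BT-474-like and 78.4% in MDA-MB-453-like cells. With TMM scaling the medians were -0.90 in BT-474-like, 0.47 in MDA-MB-231-like, -0.21 in MDA-MB-453-like, 0.07 in HCC38-like, -0.01 in Hs578T-like and -0.24 in MDA-MB-436-like cells. Without mitochondrial genes in the total they were -0.97 in BT-474-like, -0.22 in MDA-MB-453-like and 0.29 in HCC38-like cells, and with a pseudocount of 5 CPM -0.97 in BT-474-like cells. Against the other 2 lines of the same pool they were 0.87 in MDA-MB-231-like, -0.01 in MDA-MB-453-like, 0.29 in HCC38-like, -0.16 in Hs578T-like and -0.28 in MDA-MB-436-like cells. Members 2-fold lower in BT-474-like cells numbered 10 with at most 10% mitochondrial UMIs (25.8% of all genes) and 24 to 32 otherwise. Within the pool 22 members were 2-fold higher in MDA-MB-231-like cells (18% of all genes), against 4 with all other lines, and 10 were lower in MDA-MB-436-like cells (19.6%), against 5. All other counts of members were at most 7 and moved by at most 3. At 20 UMIs the shares of G2/M-high cells were 41.1% in BT-474-like, 92.2% in MDA-MB-231-like, 90.8% in MDA-MB-453-like, 81.7% in HCC38-like, 84.1% in Hs578T-like and 96.1% in MDA-MB-436-like cells. At 50 UMIs they were 23.6% in BT-474-like, 67.97% in MDA-MB-231-like, 47.3% in MDA-MB-453-like, 57.1% in HCC38-like, 55.8% in Hs578T-like and 62.2% in MDA-MB-436-like cells. At 100 UMIs, a cut chosen after seeing the data, they were 10.1% in BT-474-like, 40.4% in MDA-MB-231-like, 21.1% in MDA-MB-453-like, 31.4% in HCC38-like, 20.6% in Hs578T-like and 20.5% in MDA-MB-436-like cells. Also added after seeing the data, TTTGAA alone was in 68.2% of members' windows (15.4% of all), and CHR letters at any listed start in 77.3% (19.5%). The causes of these shifts were not tested. No paired analysis was possible because each line had 1 culture. Genes near 10 CPM are limited by depth in the bottom cells.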
